A study of Mus musculus with 2 samples.

Results

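The genes examined here are 48 genes of glycolysis, glucose transport, pyruvate and lactate handling and the hypoxia response, of which 45 were measured among 18193 genes. A gene was taken as measured when at least 1 probe set of the array was annotated to it and to no other gene. By this rule the 45 genes held 99 of 45101 probe sets, while *Gpi1*, *Pfkfb1* and *Eno1* were not analysed here. The list was drawn up by the known function of the genes, with earlier results of these data in view.

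Gene expression was profiled in primary mouse neonatal ventricular cardiomyocytes (mNVCM) isolated from C57BL6/J mice 2 days after birth. The hAFS-CMHypo + Dox cells were incubated for 3 h with hAFS-CMHypo before doxorubicin (Dox), and the Dox cells received Dox alone. hAFS-CMHypo is medium conditioned by human amniotic fluid stem cells under hypoxia, as the methods of the study have it, and carries the factors that those cells secrete. All cells spent 1 h in medium with 0.5% FBS and then received 1 μM Dox, an anthracycline that poisons type II topoisomerases. The labels give 6 h of Dox for the hAFS-CMHypo + Dox cells and 21 h for the Dox cells, while the study's methods give 6 h for gene expression with no distinction between them. If the labels are right, the length of Dox exposure cannot be told apart from the pre-incubation in any value below. No array of cells without Dox was analysed here, so no value shows what Dox itself did to these genes.

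Each condition was measured on 1 Affymetrix mouse array, so no difference has a replicate check, an SD between cultures or a p-value. Levels are RMA values on a log2 scale, which ran from 2.37 to 14.99 on the hAFS-CMHypo + Dox array and from 2.39 to 15.05 on the Dox array, with a median signal of 5.10 on each. Differences are given as log2 ratios, hAFS-CMHypo + Dox over Dox, taken at the probe set of each gene with the highest mean unless another is named. As a yardstick within the arrays, the SD of the log2 ratio among probe sets that share a gene was 0.21 over 5303 genes, and it is called the probe-set SD here. It covers differences between probe sets and not the spread between cultures. Levels are compared between the arrays and not between genes, since probe sets bind their targets with different strength. Where levels of a marker list are summed below, the brightest probe sets weigh most. In a bulk RNA sample, fewer cells of a type and less RNA per cell cannot be told apart.

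Glycolysis splits glucose into pyruvate. Glucose enters through transporters of the SLC2A (GLUT) family, hexokinase traps it by phosphorylation, phosphofructokinase sets much of the pace, and pyruvate is then turned into lactate or passes into mitochondria through the pyruvate dehydrogenase complex. The pyruvate dehydrogenase kinases shut that complex off. Hypoxia-inducible factors (HIF) connect these steps to oxygen. When oxygen is plentiful, prolyl hydroxylases mark the HIF alpha subunits for destruction through the VHL ubiquitin ligase, and when it is scarce the stabilised subunit pairs with ARNT and binds short response elements in genes that include those of glycolysis. The heart of the newborn moves in the first weeks of life away from glycolysis and towards fatty acid oxidation, and with it from the embryonic glucose transporter GLUT1 towards the insulin-responsive GLUT4.

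The HIF response element is built around the letters ACGTG or GCGTG. Promoter sequences from RefSeq on GRCm38.p6 were matched to 44 of the 48 genes by symbol, with 65 windows in all, because some genes have several annotated starts. Both strands of the 250 bases before each start were searched. The letters ACGTG were found in at least 1 window for 22 of the 44 genes (50.0%), beside 22.5% of the 14452 array genes with a promoter entry and 18.5% of all genes of the table. GCGTG was found for 30 of the 44 (68.2%), beside 42.5% of array genes. The E-box CACGTG, which holds ACGTG on both strands, was found for 7 of the 44 (15.9%), beside 8.73% of array genes. Known HIF targets are on the list by choice, so nothing is read from these shares. The windows printed next were chosen after the values were seen, to show the core letters in genes that were higher (*Hk2*, *Egln3*), level (*Ldha*) and lower (*Pdk2*, *Car9*) on the hAFS-CMHypo + Dox array. Each is written 5′ to 3′ on the strand of its gene. Capitals mark ACGTG or GCGTG on either strand, so that a match on the opposite strand reads CACGT or CACGC. They lie at chr6:82774455-82774704 on the minus strand for *Hk2*, chr12:54203875-54204124 on the minus strand for *Egln3*, chr7:46845554-46845803 on the plus strand for *Ldha*, chr11:95041372-95041621 on the minus strand for *Pdk2* and chr4:43506776-43507025 on the plus strand for *Car9*. *Ldha* and *Pdk2* each have a further start in the table, whose window held no ACGTG.
Hk2: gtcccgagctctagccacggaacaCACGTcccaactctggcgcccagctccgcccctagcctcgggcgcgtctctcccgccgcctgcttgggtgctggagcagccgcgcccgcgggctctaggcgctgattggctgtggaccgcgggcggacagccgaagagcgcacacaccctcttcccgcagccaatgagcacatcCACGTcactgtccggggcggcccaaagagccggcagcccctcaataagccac
Egln3: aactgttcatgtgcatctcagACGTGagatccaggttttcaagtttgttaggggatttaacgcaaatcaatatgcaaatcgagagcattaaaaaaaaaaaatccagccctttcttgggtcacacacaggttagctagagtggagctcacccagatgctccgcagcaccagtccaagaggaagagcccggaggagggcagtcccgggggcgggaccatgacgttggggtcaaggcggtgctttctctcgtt
Ldha: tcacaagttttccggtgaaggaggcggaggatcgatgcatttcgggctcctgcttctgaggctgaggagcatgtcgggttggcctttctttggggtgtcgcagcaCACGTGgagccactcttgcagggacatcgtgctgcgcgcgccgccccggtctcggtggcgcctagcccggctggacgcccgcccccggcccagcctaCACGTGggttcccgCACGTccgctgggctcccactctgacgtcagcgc
Pdk2: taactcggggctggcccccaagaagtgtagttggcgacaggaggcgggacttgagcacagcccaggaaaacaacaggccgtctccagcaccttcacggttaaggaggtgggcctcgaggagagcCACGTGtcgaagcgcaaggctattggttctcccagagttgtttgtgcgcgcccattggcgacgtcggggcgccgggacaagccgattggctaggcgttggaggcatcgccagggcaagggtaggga
Car9: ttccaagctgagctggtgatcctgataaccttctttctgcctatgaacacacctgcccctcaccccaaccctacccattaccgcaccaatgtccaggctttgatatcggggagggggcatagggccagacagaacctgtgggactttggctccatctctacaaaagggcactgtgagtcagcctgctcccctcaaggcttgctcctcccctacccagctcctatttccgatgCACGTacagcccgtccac

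The *Hk2* window held ACGTG at 2 positions and the *Egln3* and *Car9* windows at 1 each. The *Ldha* window held 5 matches over both strands, of which 4 came from 2 copies of CACGTG, and the *Pdk2* window held 1 copy of CACGTG. Among the measured genes with a promoter entry, the 22 with ACGTG in a window had log2 ratios from -1.05 to 0.71 with a median of 0.09. Of these, 6 were higher and 5 lower beyond the probe-set SD, where 17.5% and 15.5% of all genes were. The 19 without ACGTG had log2 ratios from -0.36 to 0.56 with a median of -0.07, with 3 higher and 4 lower beyond that SD. Genes with and without the letters therefore overlapped over most of their range. A match is a run of letters, and whether a factor binds there was not measured.

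The 45 genes as a group were level between the arrays, with a few that stood out in each direction. Their median log2 ratio was -0.03, beside 0.01 for all genes, with 22 genes above 0 and 23 below. No gene was 2-fold higher on the hAFS-CMHypo + Dox array, where 0.506% of all genes were, and only *Pdk2* was 2-fold lower, where 0.214% of all genes were. At 1.5-fold, *Ndrg1*, *Slc2a3*, *Hk2* and *Egln3* were higher (4 of 45; 2.32% of all genes), and *Pdk2* and *Slc2a4* were lower (2 of 45; 1.52% of all genes). Beyond the probe-set SD, 11 genes were higher (17.5% of all genes) and 11 were lower (15.5% of all genes), and 23 lay within it. The counts at 1.5-fold rest on single genes, and no test was possible with 1 array per condition.

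**Figure D1:**
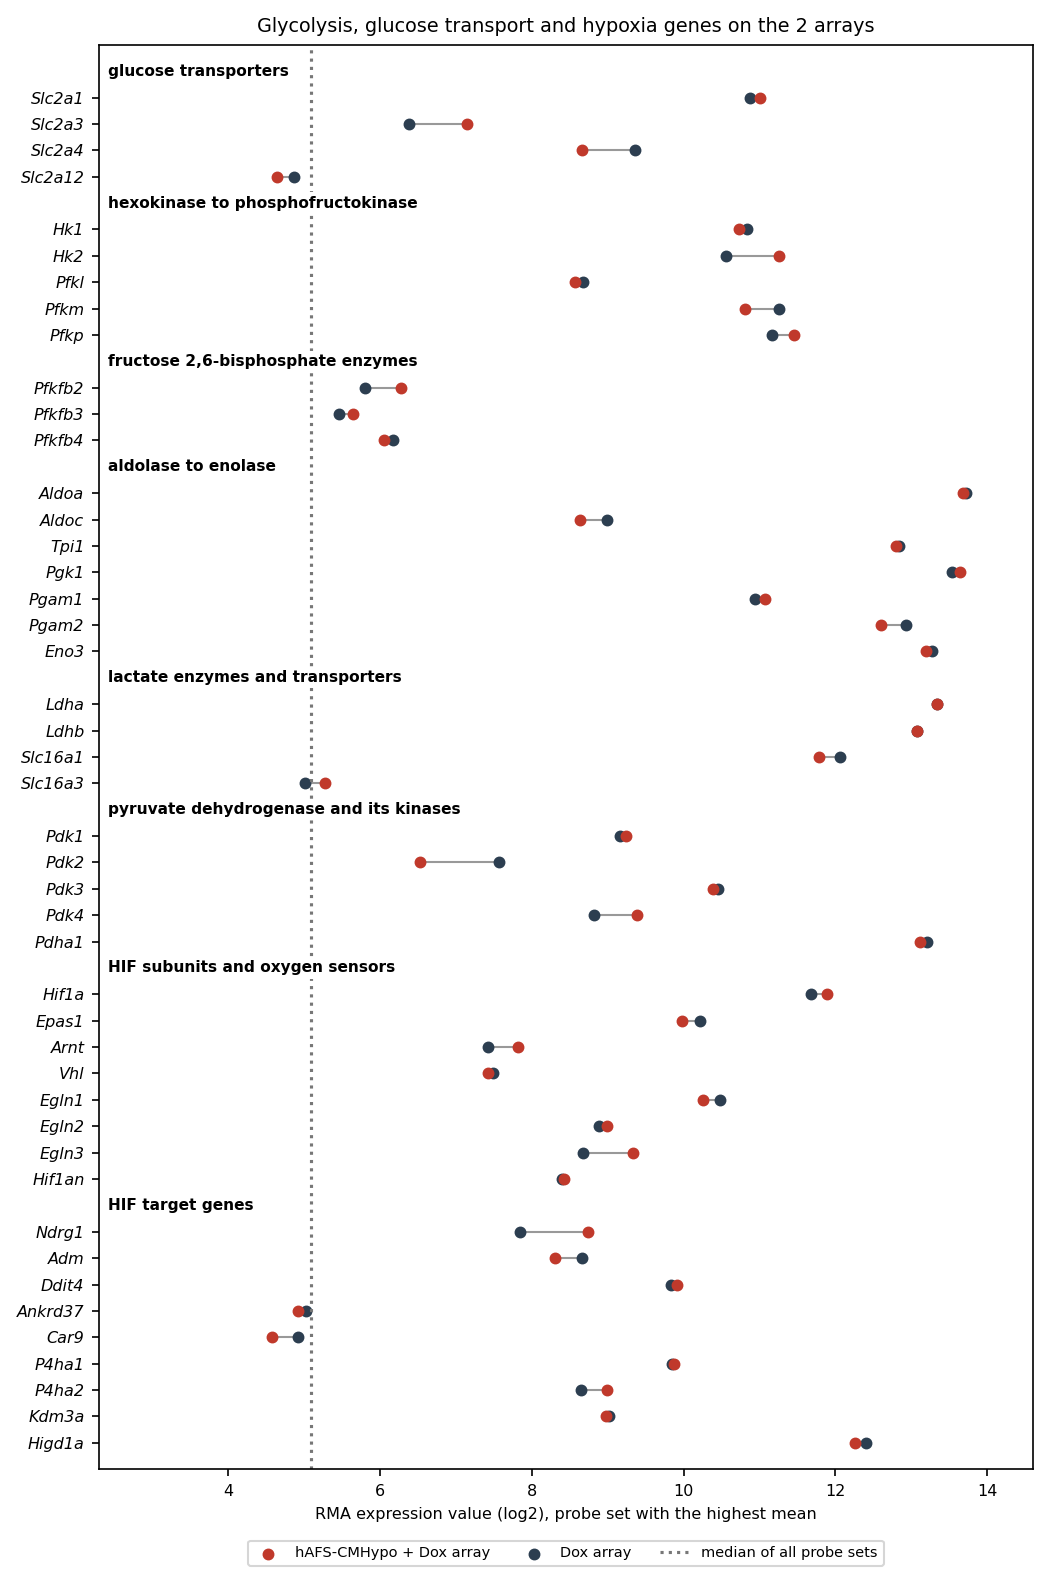
RMA values (log2, horizontal axis) of the 45 measured genes, grouped by role, on the hAFS-CMHypo + Dox array (red points) and the Dox array (dark points), 1 array each, at the probe set of each gene with the highest mean. The dotted line marks the median signal of the arrays. The widest gaps are those of *Pdk2*, *Ndrg1*, *Slc2a3*, *Hk2*, *Slc2a4* and *Egln3*, while the points of *Aldoa*, *Ldha* and *Ldhb* nearly coincide.

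Among the glucose transporters, the genes did not share a direction. *Slc2a4* codes for GLUT4, the insulin-responsive transporter of muscle and fat. Its level was 8.66 on the hAFS-CMHypo + Dox array and 9.36 on the Dox array, a log2 ratio of -0.70 or 1.62-fold lower, and it stood at position 158 from the lowest of all genes. The other probe set of *Slc2a4* had 7.90 with hAFS-CMHypo + Dox against 8.78 with Dox, a log2 ratio of -0.88. Both probe sets thus placed the gene lower on the hAFS-CMHypo + Dox array and past 1.5-fold.

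*Slc2a3* codes for GLUT3, a high-affinity transporter best known from neurons. Its level was 7.14 on the hAFS-CMHypo + Dox array and 6.39 on the Dox array, a log2 ratio of 0.75 or 1.68-fold, which ranked 211 from the highest. A second probe set gave 5.96 against 5.26 for Dox, a log2 ratio of 0.70. The remaining pair were dim, with 4.06 against 3.89 and 4.04 against 3.79 for Dox, and had log2 ratios of 0.16 and 0.25. All 4 probe sets of *Slc2a3* were higher on the hAFS-CMHypo + Dox array, but the brighter pair carry the suffixes _s_at and _x_at, which mark probe sets that can bind transcripts of other genes. With these types and the _a_at type, which can bind several transcripts of a gene, left out as less specific, the log2 ratio was 0.25, and the _a_at probe set of *Slc2a3* itself had 0.16. The mean over all its probe sets was 0.46, so that *Slc2a3* fell short of 1.5-fold under either choice.

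*Slc2a1*, which codes for the basal transporter GLUT1, was at 11.00 on the hAFS-CMHypo + Dox array and 10.87 on the Dox array. Its 3 probe sets had log2 ratios of 0.13, 0.27 and 0.30, all above 0. *Slc2a12*, a further member of the family that is also expressed in heart, lay below the median of all probe sets on both arrays (4.65 against 4.87 for Dox), with log2 ratios of -0.22 and 0.07. The median of the 4 transporters was -0.04. The log2 ratio of *Slc2a1* exceeded that of *Slc2a4* by 0.83, and that of *Slc2a3* exceeded it by 1.45. This and the other pairs of related genes set side by side below were picked after their values were seen.

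In the first steps of glycolysis, the second hexokinase stood apart from the first. *Hk2*, the insulin- and hypoxia-responsive hexokinase of muscle, was at 11.26 on the hAFS-CMHypo + Dox array and 10.56 on the Dox array, a log2 ratio of 0.71 or 1.63-fold, which ranked 257 from the highest of all genes. It was measured by a single probe set, of the gene-specific type. *Hk1*, the more widely expressed hexokinase, was at 10.73 on the hAFS-CMHypo + Dox array and 10.84 on the Dox array (-0.11, and 0.01 at its other probe set). The log2 ratio of *Hk2* exceeded that of *Hk1* by 0.81.

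Phosphofructokinase, which commits fructose 6-phosphate to glycolysis, is assembled from muscle, liver and platelet type subunits. *Pfkm*, the muscle type, was at 10.82 with hAFS-CMHypo + Dox and 11.26 with Dox (-0.44). *Pfkp*, the platelet type, was at 11.46 with hAFS-CMHypo + Dox and 11.17 with Dox (0.29), with 0.49 at a further probe set and 0.05 at one that was dim on both arrays. *Pfkl*, the liver type, was at 8.57 with hAFS-CMHypo + Dox and 8.68 with Dox (-0.11, and up to 0.15 among 3 probe sets). The muscle subunit was therefore lower and the platelet subunit higher, with a difference of 0.73 between their log2 ratios. The 5 genes from hexokinase to phosphofructokinase had a median of -0.11, which was 0.15 with the probe set of the largest change and 0.13 without the less specific probe sets.

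The bifunctional PFKFB enzymes make and break fructose 2,6-bisphosphate, the strongest activator of phosphofructokinase. *Pfkfb2*, the heart type, was at 6.27 on the hAFS-CMHypo + Dox array and 5.80 on the Dox array (0.47), but its other probe sets had -0.20, 0.12 and -0.04, and the mean of all was 0.09. *Pfkfb3*, a HIF-responsive type, was at 5.64 against 5.46 for Dox (0.18). Its other probe set had 3.53 on the hAFS-CMHypo + Dox array and 4.53 on the Dox array, a log2 ratio of -1.0. Both values of that probe set lay below the median signal, and the hAFS-CMHypo + Dox value below the 25th percentile (3.80). *Pfkfb3* was the only one of the 45 genes whose probe sets differed by more than 1 log2 unit, so that no direction is given for it. *Pfkfb4* was at 6.05 with hAFS-CMHypo + Dox and 6.17 with Dox (-0.12).

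From aldolase to enolase, 5 of the 7 measured genes lay within the probe-set SD. *Aldoa*, which codes for the muscle aldolase, was at 13.68 on the hAFS-CMHypo + Dox array and 13.72 on the Dox array. Its log2 ratio was -0.03, with a range of -0.11 to 0.07 over 5 probe sets, all of a type that can also bind related transcripts. *Pgk1*, the first ATP-yielding kinase of the pathway, was at 13.64 with hAFS-CMHypo + Dox and 13.54 with Dox (0.10, and near 0 and 0.04 at its other probe sets). *Tpi1*, triosephosphate isomerase, had 12.81 against 12.84 for Dox (-0.04), and *Eno3*, the muscle enolase, 13.20 against 13.27 for Dox (-0.07). These 4 differences were smaller than the probe-set SD.

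In the same stretch, *Aldoc*, the brain-type aldolase, had the largest difference. It was at 8.63 on the hAFS-CMHypo + Dox array and 8.99 on the Dox array (-0.36), and its dim second probe set had -0.12. *Pgam2*, the muscle phosphoglycerate mutase, was at 12.60 with hAFS-CMHypo + Dox and 12.93 with Dox (-0.33). *Pgam1*, the widely expressed form, was at 11.07 with hAFS-CMHypo + Dox and 10.94 with Dox (0.13), a difference of 0.46 between the log2 ratios of the mutases. The 7 genes had a median of -0.04. None was higher and 2 were lower beyond the probe-set SD, where 17.5% and 15.5% of all genes were.

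Lactate dehydrogenase showed no difference at its brightest probe sets. *Ldha*, whose product favours the making of lactate and which is a classical HIF target, was at 13.34 on both arrays, with a log2 ratio of 0.00. *Ldhb*, the heart-type subunit, was at 13.07 on both arrays, with its other probe sets between -0.16 and -0.05. *Slc16a1* codes for the monocarboxylate transporter MCT1, which carries lactate and pyruvate across the membrane. It was at 11.78 on the hAFS-CMHypo + Dox array and 12.07 on the Dox array (-0.28, and -0.36 at its dim second probe set). *Slc16a3*, which codes for the lactate exporter MCT4 of glycolytic cells, was at 5.28 with hAFS-CMHypo + Dox and 5.02 with Dox (0.26), both close to the median signal. These transporters thus stood 0.54 apart in log2 ratio, each just past the probe-set SD.

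**Figure D2:**
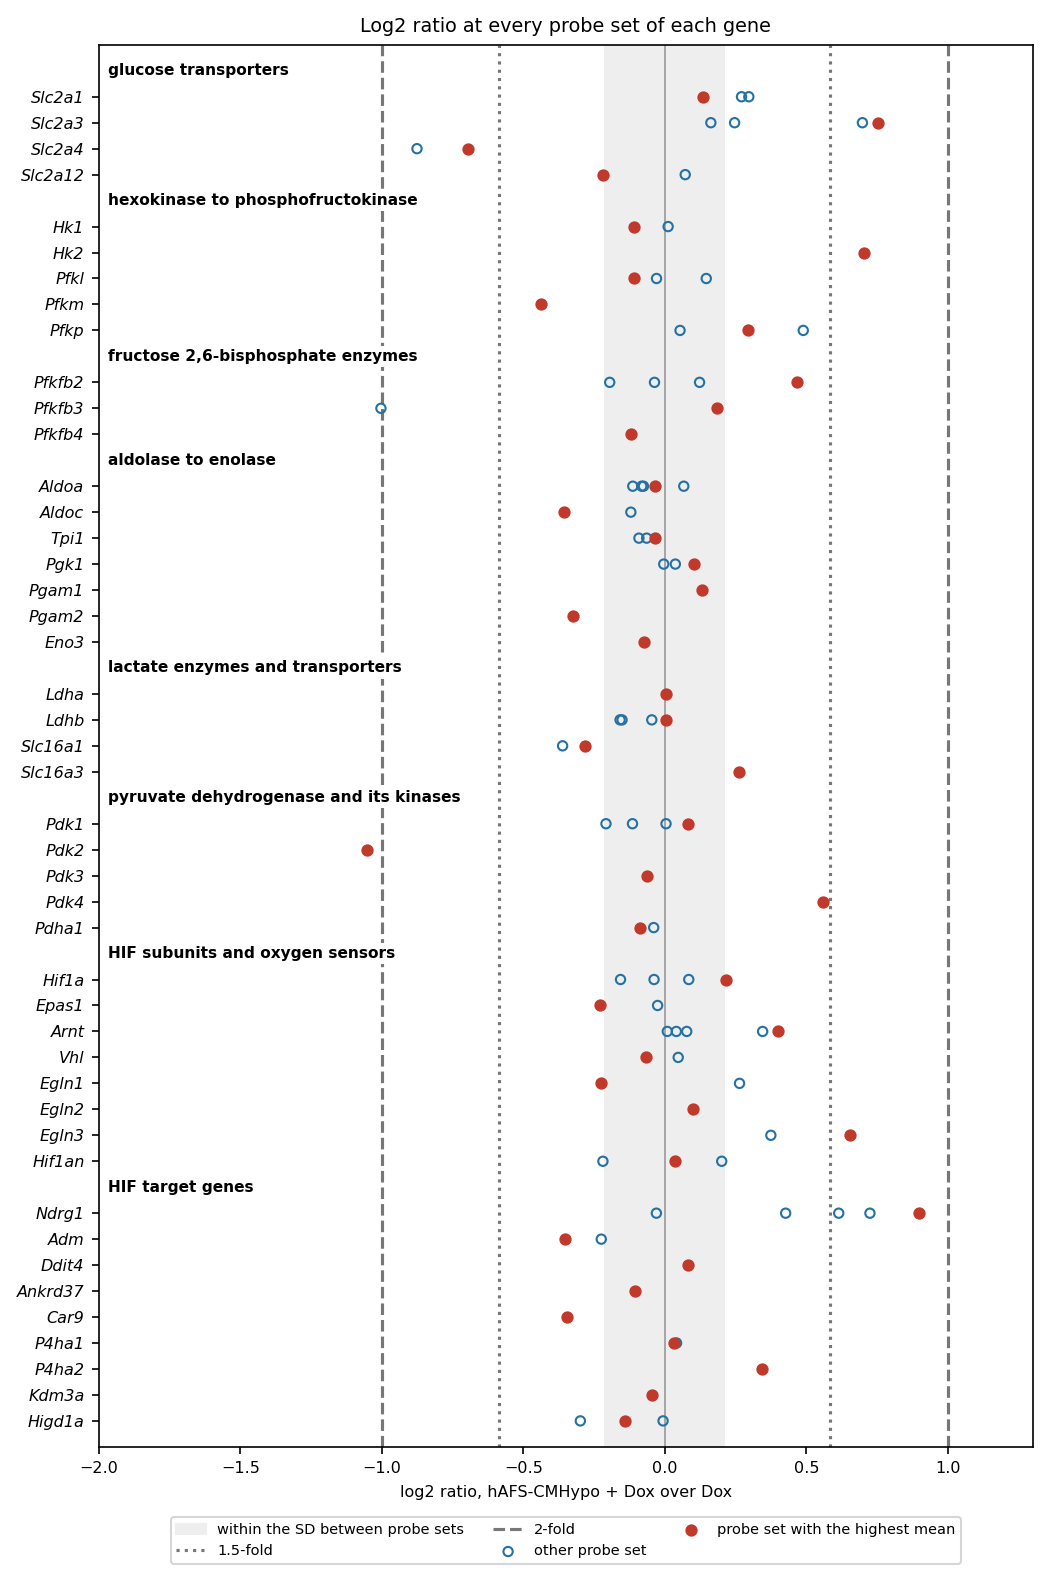
Log2 ratio (hAFS-CMHypo + Dox over Dox, horizontal axis) at each of the 99 probe sets of the 45 genes, with filled red points for the probe set of the highest mean and open blue points for the others. Grey shading marks the probe-set SD (0.21), dotted lines 1.5-fold and dashed lines 2-fold. *Pdk2* and 1 dim probe set of *Pfkfb3* lie past the left dashed line, no point reaches the right one, and the points of *Ndrg1* spread from -0.03 to 0.90.

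At the entry of pyruvate into mitochondria, 2 of the 4 kinases that switch off pyruvate dehydrogenase stood apart in opposite directions. *Pdk2*, the widely expressed kinase, was at 6.52 on the hAFS-CMHypo + Dox array and 7.57 on the Dox array. Its log2 ratio of -1.05, or 2.07-fold lower, ranked 33 from the lowest of all genes and was the largest of the 45 genes in either direction. *Pdk4*, the kinase that fasting, PPAR agonists and glucocorticoids induce in heart, was at 9.38 with hAFS-CMHypo + Dox and 8.83 with Dox, a log2 ratio of 0.56 or 1.47-fold. Each of these genes was measured by 1 gene-specific probe set, so neither value has a second reading. Their log2 ratios differed by 1.61.

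*Pdk1*, the kinase best known as a HIF target, was at 9.25 on the hAFS-CMHypo + Dox array and 9.17 on the Dox array (0.08). Its other probe sets ran from -0.21 to 0.00. *Pdk3* was at 10.39 with hAFS-CMHypo + Dox and 10.45 with Dox (-0.06). *Pdha1*, the catalytic alpha subunit of the complex, was at 13.12 with hAFS-CMHypo + Dox and 13.20 with Dox (-0.09, and -0.04 at its other probe set). All 3 lay within the probe-set SD.

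Among the HIF subunits and their oxygen sensors, *Egln3* was the gene with the largest difference. It codes for the prolyl hydroxylase PHD3, which both acts on HIF alpha subunits and is itself induced by them. Its level was 9.33 on the hAFS-CMHypo + Dox array and 8.68 on the Dox array, a log2 ratio of 0.65 or 1.57-fold, which ranked 312 from the highest. The other probe set had 7.48 with hAFS-CMHypo + Dox and 7.11 with Dox, a log2 ratio of 0.37, so that both placed *Egln3* higher on the hAFS-CMHypo + Dox array. *Egln1*, the main prolyl hydroxylase PHD2, had no settled direction, with 10.25 against 10.48 for Dox at one probe set (-0.22) and 9.04 against 8.77 for Dox at the other (0.26). *Egln2*, which codes for PHD1, was at 8.99 with hAFS-CMHypo + Dox and 8.89 with Dox (0.10).

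*Hif1a*, which codes for the inducible alpha subunit, was at 11.89 on the hAFS-CMHypo + Dox array and 11.68 on the Dox array. Its log2 ratio was 0.22, just past the probe-set SD, and its other probe sets had 0.08, -0.16 and -0.04. *Epas1*, which codes for HIF-2 alpha and is strong in endothelium, was at 9.98 with hAFS-CMHypo + Dox and 10.21 with Dox (-0.23, and -0.03 at its other probe set). *Arnt*, the constitutive partner of both, was at 7.82 with hAFS-CMHypo + Dox and 7.42 with Dox (0.40). Over its 5 probe sets *Arnt* ranged from 0.01 to 0.40, with a mean of 0.17 (0.04 without the less specific probe sets). HIF alpha subunits are controlled mainly through protein stability, which an array does not measure.

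*Vhl*, the recognition subunit of the ubiquitin ligase, was at 7.43 with hAFS-CMHypo + Dox and 7.50 with Dox (-0.07, and 0.05 at its other probe set). *Hif1an*, the asparaginyl hydroxylase FIH that blocks the HIF transactivation domain, was at 8.43 with hAFS-CMHypo + Dox and 8.39 with Dox (0.04, and -0.22 and 0.20 at dimmer probe sets). The 8 genes of this group had a median of 0.07. Of these, 3 were higher and 2 lower beyond the probe-set SD, where 17.5% and 15.5% of all genes were.

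The HIF target genes outside glycolysis were mixed, with *Ndrg1* at their head. *Ndrg1*, a gene induced by hypoxia and other stresses, had the highest log2 ratio of the 45 genes, 0.90 or 1.86-fold, and ranked 121 from the highest of all genes. Its level was 8.74 on the hAFS-CMHypo + Dox array and 7.84 on the Dox array. Of its other probe sets, 3 were higher, with 7.99 against 7.26 for Dox (0.72), 6.63 against 6.02 for Dox (0.61) and 6.68 against 6.25 for Dox (0.43). The last had 7.06 against 7.09 for Dox (-0.03). Thus 4 of the 5 probe sets of *Ndrg1* were higher beyond the probe-set SD. The mean of all was 0.53, and the log2 ratio was 0.43 without the less specific types, both short of 1.5-fold.

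The other HIF targets did not follow *Ndrg1* as a group. *P4ha2*, a subunit of the collagen prolyl hydroxylase, was at 8.99 on the hAFS-CMHypo + Dox array and 8.65 on the Dox array (0.34), whereas *P4ha1*, the other catalytic subunit, was at 9.88 with hAFS-CMHypo + Dox and 9.84 with Dox (0.03). *Ddit4*, which codes for the mTORC1 inhibitor REDD1, was at 9.91 with hAFS-CMHypo + Dox and 9.83 with Dox (0.08). *Kdm3a*, a histone H3K9 demethylase, was at 8.98 with hAFS-CMHypo + Dox and 9.02 with Dox (-0.04). These genes, *P4ha2* apart, lay within the probe-set SD.

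On the lower side, *Adm*, which codes for the vasodilator peptide adrenomedullin, was at 8.30 on the hAFS-CMHypo + Dox array and 8.66 on the Dox array (-0.35, and -0.22 at its other probe set). *Car9*, a membrane carbonic anhydrase that is among the most HIF-dependent genes known, was at 4.58 with hAFS-CMHypo + Dox and 4.93 with Dox (-0.35). *Ankrd37* was at 4.92 with hAFS-CMHypo + Dox and 5.03 with Dox (-0.11). Both *Car9* and *Ankrd37* lay below the median of all probe sets on both arrays, where a signal is not shown to be above background. *Higd1a*, a mitochondrial protein of the hypoxia response, was at 12.27 with hAFS-CMHypo + Dox and 12.41 with Dox (-0.14, and as low as -0.30 among 3 probe sets). The 9 targets had a median of -0.04. Of these, 2 were higher and 2 lower beyond the probe-set SD, where 17.5% and 15.5% of all genes were.

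**Figure D3:**
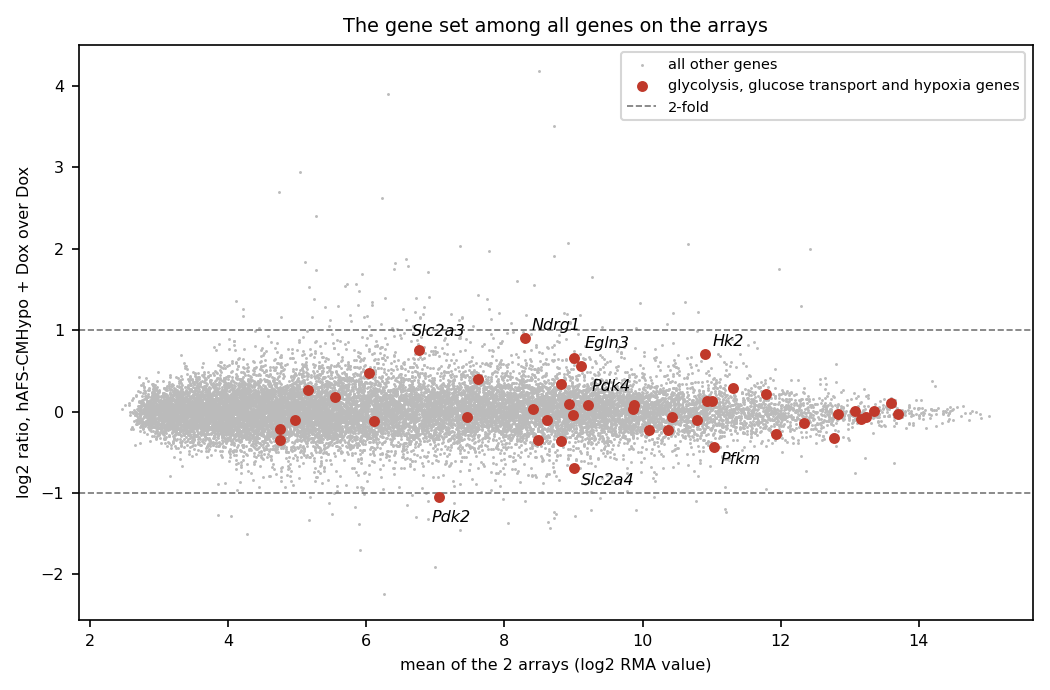
Log2 ratio (hAFS-CMHypo + Dox over Dox, vertical axis) against the mean log2 value of both arrays (horizontal axis) for all genes (grey) and the 45 genes of the set (red), with dashed lines at 2-fold. The red points lie on both sides of 0 over most of the range of levels. Only *Pdk2* lies past the lower dashed line and none past the upper one.

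Agreement between probe sets limits how finely single genes can be read. Of the 45 genes, 28 had 2 or more probe sets, with 14 whose probe sets all had one sign and 14 whose probe sets had both. The other 17 genes, *Hk2*, *Pdk2* and *Pdk4* among them, had a single probe set. At the level of probe sets, 7 of the 99 were 1.5-fold higher on the hAFS-CMHypo + Dox array (2.03% of all probe sets with 1 gene) and 4 were 1.5-fold lower (1.89%), and 5 lay below the 25th percentile of all probe sets on both. Of the 6 genes past 1.5-fold, *Slc2a4* was the only one with several probe sets that reached this size at each of them.

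Neighbouring genes of the same pathways gave a context for these values, with lists of genes that are not among the 48. *Gys1*, *Gbe1* and *Pgm1* stand in more than one of these lists. Of 20 measured other genes of glycolysis and gluconeogenesis, 6 were higher and 4 lower beyond the probe-set SD, where 17.5% and 15.5% of all genes were. Their median was 0.07. *Gpd1l*, a glycerol phosphate dehydrogenase-like enzyme, had a log2 ratio of -0.40. *Bpgm*, which makes 2,3-bisphosphoglycerate, had 0.34, *Pck2*, the mitochondrial enzyme that forms phosphoenolpyruvate, had -0.34 and *Pgm1*, a phosphoglucomutase, had -0.32. Of 11 other genes from the transporter families of glucose, lactate and pyruvate, 3 were higher and none was lower beyond that SD (median 0.00), beside the same shares of all genes. Of those 3, *Slc5a1* (4.21 against 3.60 for Dox) and *Slc2a13*, a myo-inositol transporter (4.30 against 3.73 for Dox), lay below the median signal on both arrays. Background was not told from signal there, and the other probe set of *Slc5a1* had -0.29. *Slc2a5*, the fructose transporter, was the other of the 3 and had 0.31, *Slc2a10* 0.19, *Slc16a7* -0.16 and *Mpc1*, a subunit of the mitochondrial pyruvate carrier, -0.13.

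Most of the other genes of the pyruvate dehydrogenase complex and its surroundings lay within the probe-set SD. Of 8 genes, 6 did so, and 2 were lower and none higher beyond it, where 15.5% of all genes were lower and 17.5% higher. Of the 8, 6 had a log2 ratio below 0, beside 8869 of all 18193 genes (median -0.12). *Dlat*, the acetyltransferase core of the complex, was at 10.90 on the hAFS-CMHypo + Dox array and 11.34 on the Dox array (-0.44). *Dld*, the shared lipoamide dehydrogenase, had -0.30, with 0.05 at its other probe set. *Pcx*, pyruvate carboxylase, had 0.19, and *Pdp1*, the phosphatase that reverses the action of the kinases, had -0.13.

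The glycogen genes had the lowest median of the pathway lists. Of 14 measured genes, 13 had a log2 ratio below 0, beside 8869 of all 18193 genes, and their median was -0.26. Beyond the probe-set SD, 8 were lower and 1 higher, where 15.5% of all genes were lower and 17.5% higher. *Ppp1r3a*, among the 8 lower genes, lay below the 25th percentile of all probe sets on both arrays (3.26 against 3.52 for Dox). So did *Phkg1*, whose log2 ratio was -0.01. *Pygb*, a glycogen phosphorylase, was at 11.77 on the hAFS-CMHypo + Dox array and 12.27 on the Dox array (-0.50). *Gbe1*, the branching enzyme, had -0.47, *Phkb*, a subunit of phosphorylase kinase, -0.44 and *Ppp1r3c*, which targets protein phosphatase 1 to glycogen, -0.42. *Stbd1*, a glycogen-binding protein, was the exception, at 0.28. None of the 14 genes reached 1.5-fold.

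Of 7 pentose phosphate genes, 1 was higher and none lower beyond the probe-set SD (median 0.00). That gene was *H6pd*, the hexose 6-phosphate dehydrogenase of the endoplasmic reticulum, at 8.76 on the hAFS-CMHypo + Dox array and 8.0 on the Dox array (0.76). The other 6 measured genes, of the cytosolic pathway, lay within that SD, with *Rpia* at -0.11, *Taldo1* at -0.08 and *Tkt* at 0.07 as the next largest. *G6pdx* was not among the 7 genes, so the cytosolic pathway as a whole is not described. Of 5 genes of glucose sensing, 3 were higher and none lower beyond that SD (median 0.22), where 17.5% of all genes were higher and 15.5% lower. *Mlxipl*, which codes for the glucose-responsive factor ChREBP, was at 5.28 with hAFS-CMHypo + Dox and 4.83 with Dox (0.46), both close to the median signal. Its relative *Mlxip* had 0.22, just past that SD. Of their targets, *Arrdc4* had 0.43 (0.90 at its other probe set) and *Txnip*, which restrains glucose uptake, 0.12.

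Further components of the HIF pathway were level, and further HIF targets were as mixed as those of the set. Of 12 other components, none was higher and 1 lower beyond the probe-set SD (median 0.04), where 17.5% and 15.5% of all genes were. The lower one was *Cul2*, the scaffold of the VHL ligase, at -0.38, followed by *Commd1* at -0.19. Of 36 other HIF targets, 9 were higher and 11 lower beyond that SD (median -0.06), beside the same shares of all genes. Both directions were thus more common in this list than among all genes, the lower one more so. *Angptl4*, an inhibitor of lipoprotein lipase that PPARs also induce, was the only one past 2-fold, at 7.42 with hAFS-CMHypo + Dox and 6.02 with Dox (1.40), but its other probe set had -0.05. *Bhlhe40*, a circadian repressor, had 0.95, *Lox*, which crosslinks collagen, had 0.89 (as low as 0.17 among 3 probe sets) and *Rcor2*, a corepressor, had -0.58. *Vegfa* (-0.26) and *Bnip3* (-0.30), targets added after their values were seen because they are among the most used hypoxia markers, were both lower. They stand among the 11 lower targets.

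**Figure D4:**
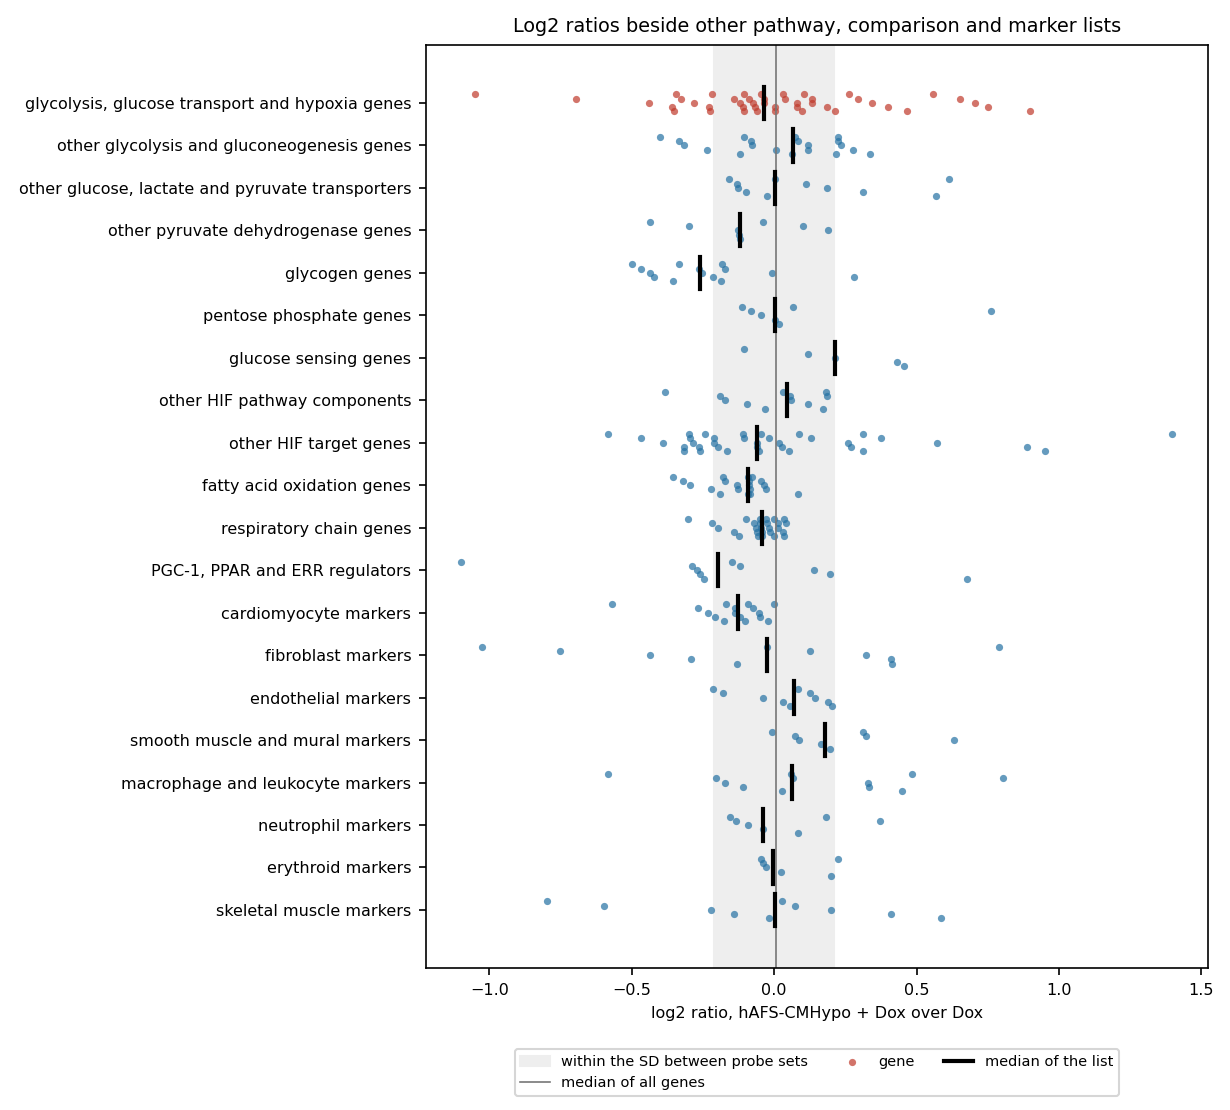
Log2 ratio (hAFS-CMHypo + Dox over Dox, horizontal axis) of each measured gene of the set (red points, top row) and of the other pathway, comparison and cell type marker lists (blue points), with a black bar at the median of each list and the grey line at the median of all genes. Grey shading marks the probe-set SD (0.21). The set is centred near 0 at -0.03, the glycogen genes lie furthest to the left at -0.26, and the cardiomyocyte markers have a median of -0.13.

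The other fuel pathways of the heart were compared with the set. Of 20 genes of fatty acid oxidation, 19 had a log2 ratio below 0, beside 8869 of all 18193 genes, but 16 lay within the probe-set SD. Beyond it, 4 were lower and none higher (median -0.09), where 15.5% of all genes were lower and 17.5% higher. *Hadh* had -0.35, *Cpt2* -0.32, *Acadm* -0.30 and *Acads* -0.22. Of 27 genes of the respiratory chain, 21 had a log2 ratio below 0, and 2 were lower and none higher beyond that SD (median -0.04). Of 10 regulators of the PGC-1, PPAR and ERR families, 5 were lower and 1 higher beyond it (median -0.20), but the median was 0.017 with the mean of all probe sets of a gene. Of the 5 lower ones, *Esrra*, *Esrrb* and *Esrrg* had another probe set above 0, at 0.25, 1.14 and 0.27. *Ppargc1a*, the coactivator PGC-1 alpha that drives mitochondrial genes and also GLUT4 in muscle, was at 6.35 on the hAFS-CMHypo + Dox array and 7.45 on the Dox array (-1.10). All 5 of its probe sets were lower, from -1.10 to -0.41. *Ppard*, a regulator of *Pdk4* and *Angptl4*, was at 6.63 with hAFS-CMHypo + Dox and 5.96 with Dox (0.68, and 0.23 at its other probe set).

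The labelled cell type was checked with marker lists, since the muscle and non-muscle forms of these enzymes differ between cell types. All 16 cardiomyocyte markers lay above the median of all probe sets on both arrays. Their summed linear level was 288755.0 on the hAFS-CMHypo + Dox array and 310454.9 on the Dox array, a ratio of 0.93. The median of their log2 ratios was -0.13, from -0.57 for *Pln*, which codes for phospholamban, to 0.00. Of the 16, 15 had a log2 ratio below 0, beside 8869 of all 18193 genes. Beyond the probe-set SD, 3 were lower and none higher, where 15.5% of all genes were lower and 17.5% higher. None of the 16 reached 1.5-fold. The muscle forms *Slc2a4* (-0.70), *Pfkm* (-0.44) and *Pgam2* (-0.33) had lower log2 ratios than that median. The muscle forms *Eno3* (-0.07), *Aldoa* (-0.03) and *Hk2* (0.71) did not, nor did the heart-type forms *Ldhb* (0.00) and *Pfkfb2* (0.47). The muscle and heart forms thus had no common direction.

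Markers of other cells were looked at as well. The summed level of the 11 fibroblast markers was 0.97 of that on the Dox array, and *Dcn*, *Col1a2* and *Col3a1* weigh most in it. Beyond the probe-set SD, 4 were higher and 4 lower, where 17.5% and 15.5% of all genes were. Past 1.5-fold, *Tcf21* (-1.03) and *Ddr2* (-0.75) were lower and *Pdgfra* (0.79) was higher. Another probe set of each had 0.18, -0.05 and -0.05, in that order. For the 8 smooth muscle and mural markers the summed level was 1.05 of that on the Dox array, with 3 higher and none lower. The brightest of these were *Acta2* (14.40 on both arrays), *Des* and *Tagln*, which weigh most in the sum. *Myh11*, of the same list, lay below the median signal on both arrays (4.97 against 4.89 for Dox). The sum is therefore not read as a measure of mural cells. For the 10 endothelial markers the summed level was also 1.05, with none higher and 1 lower. The 12 macrophage and leukocyte markers had a summed level of 0.99, with 5 higher and 1 lower. Of the 6 erythroid markers, *Hba-a1* and *Rhag* lay below the 25th percentile of all probe sets on both arrays, and 1, *Klf1*, lay above the median signal (5.74 against 5.51 for Dox). Of the 10 skeletal muscle markers, *Myh2* and *Myh4* lay below that percentile on both arrays. On at least 1 array, 4 reached the median signal, among them *Ckm* (13.36 against 13.38 for Dox) and *Acta1* (10.62 against 10.84 for Dox), which the heart expresses too, as well as *Tnni2* (6.24 against 6.16 for Dox) and *Myod1* (5.52 against 4.93 for Dox). The summed levels were 1.02 for 7 neutrophil, 1.08 for 6 erythroid and 0.97 for 10 skeletal muscle markers. The part of cell composition in the values of *Slc2a4*, *Slc2a3*, *Hk2* and *Pdk2* was not tested.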

How the data were processed

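Gene expression in mNVCM was measured on 1 Affymetrix mouse genome array for hAFS-CMHypo + Dox and 1 for Dox. The authors made the deposited log2 values, 1 per probe set, by RMA with quantile normalization. The software was not given in the sources used here, nor were the probe set definitions. The range of the values was the basis for taking them as log2. No column of values was left unused.

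Of 45101 probe sets, 34958 carried 1 gene symbol in the platform annotation, 932 several and 9211 none, and 34754 of the first were updated through the Entrez ID with RefSeq genes on GRCm38.p6. The 64 control probe sets were left out. Each of 18193 genes took the probe set with the highest mean, and log2 ratios were counted at 2-fold, 1.5-fold and the SD among probe sets that share a gene (genes whose higher array reached the median). The number of arrays limits the precision, and no test could be made.

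The genes and lists were chosen with earlier results of these data known. All values are given for genes past 1.5-fold at any probe set, the 3 with the largest mean and the largest of each role group; of other pathway lists up to 4 genes at or above the median signal are named. Promoters were the 250 bases before each start. Alternatives were other choices of probe set, leaving out less specific probe set types (_x_at, _s_at and _a_at), centring, lowess correction (span 0.3) and leaving out genes of low signal (under the median or the 25th percentile). The counting was checked on simulated data. Python 3.11.15 was used with pandas 2.3.3, numpy 2.4.6, matplotlib 3.10.9 and statsmodels 0.14.6.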

Additional observations from a re-analysis of the deposited data

How the results depend on the processing

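The median log2 ratio of the 45 genes stayed between -0.07 and 0.00 under the alternatives run. Of 218 values of single genes, 203 moved by no more than the probe-set SD, and of 196 list medians 189 did. Many of these could hardly move, since the arrays were already quantile normalized before centring and lowess correction. In addition, 17 of the 45 genes have a single probe set, so another choice of probe set changes nothing for them. The counts are therefore not read as a sign that the values are stable. Among those of the 45 genes that were past the probe-set SD, 1 turned its direction. *Egln1* had 0.020 with the mean of all probe sets and 0.26 with the probe set of the largest change, in place of -0.22. With the mean of all probe sets, 1 gene in place of 4, *Hk2*, was 1.5-fold higher, the median of the fructose 2,6-bisphosphate enzymes was -0.12 in place of 0.18, and that of the PGC-1, PPAR and ERR regulators 0.017 in place of -0.20. With the probe set of the largest change, 2 genes in place of 1 were 2-fold lower, the second being *Pfkfb3*, and these medians were -0.12 and 0.037, while that of hexokinase to phosphofructokinase was 0.15 in place of -0.11. That choice also raised the 2-fold lower count over all genes to 83 in place of 39, and the 1.5-fold lower count to 535 in place of 277. Without the less specific probe set types, 38 of the genes were measured, 2 (*Hk2* and *Egln3*) were 1.5-fold higher and the hexokinase to phosphofructokinase median was 0.13. Among genes at or above the median signal, the erythroid median was 0.22 in place of 0.00, from the 1 marker left. In the other cases the cause was not tested. No paired analysis was possible because each condition has 1 array.

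With 1 array for each condition, differences between the cultures, the hybridisations and the hours of Dox in the labels cannot be told apart from the pre-incubation. Probe sets below the median signal, such as those of *Slc2a12*, *Ankrd37* and *Car9*, are not shown to be above background. RNA levels say nothing of enzyme activity, of glucose uptake or of HIF protein.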
